A study of Mus musculus with 34 samples.

Results

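Interferon-stimulated genes are the genes that cells switch on in answer to interferons, and 40 of them were followed here through spinal cord injury in KO and WT mice. They were chosen by name, as genes whose symbol in the array's probe annotation was on the list. The list was drawn up with earlier results of these data known. Each gene was read from the probe set that averaged highest across the 34 arrays. Of the 40, 38 had a probe set annotated to that gene alone, and 35 of these passed the filter on low values (log2 above 4 on at least 4 arrays) among 11993 genes tested of 18193 with a probe set. Isg15 and Ifi44 had no such probe set, and Oas2, Oasl1 and Mx2 did not pass: Oas2 was above log2 4 on 0 arrays, Mx2 on 1 and Oasl1 on 2. The labels describe KO mice, null for trkB.T1 (a truncated form of the BDNF receptor encoded by Ntrk2), and WT mice, with spinal cord collected after a sham operation without cord damage or after spinal cord injury. There were 4 KO arrays after sham surgery, 4 at 1 day, 5 at 3 days and 4 at 7 days after injury, and 4 WT arrays after sham surgery, 5 at 1 day, 4 at 3 days and 4 at 7 days. The sham arrays of each genotype are labelled day 0, and there were no sham arrays at days 1, 3 or 7. In differences from sham, injury and time after surgery cannot be told apart. Strain, sex, age and the level and force of the injury are not given in the sources used here, nor is it said that replicates are separate animals, so p-values measure the spread between these samples, which may in part be technical. Levels are log2 probe set values, and a value of log2 4 or less is called not well above background.

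Type I interferons act through the receptor chains IFNAR1 and IFNAR2, whose kinases JAK1 and TYK2 phosphorylate STAT2. STAT2 joins IRF9 in a complex that binds the interferon-stimulated response element, or ISRE, in the promoters of antiviral genes. Interferon gamma acts through IFNGR1 and IFNGR2 and the gamma-activated site, or GAS, and its targets include guanylate-binding proteins, immunity-related GTPases and the machinery of antigen presentation. In the central nervous system, microglia, infiltrating macrophages, astrocytes and endothelial cells can all express these genes.

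The promoters of 5 members are shown because they hold the letters of these elements and belong to genes whose time courses differ below. The sequences are RefSeq's, on build GRCm38.p6, each the 250 bases before the annotated start, 5′ to 3′ on the gene's strand. They are chr3:142620413-142620662 (plus strand) for Gbp2, chr19:34640639-34640888 (plus) for Ifit1, chr11:58199306-58199555 (plus) for Igtp, chr11:48871421-48871670 (minus) for Irgm1 and chr8:120736108-120736357 (plus) for Irf8. Capitals mark the ISRE core, which is GAAA, any 2 bases and GAAA again, or its reverse complement with TTTC, and the GAS letters TTCNNNGAA, which read the same on both strands.
Ifit1: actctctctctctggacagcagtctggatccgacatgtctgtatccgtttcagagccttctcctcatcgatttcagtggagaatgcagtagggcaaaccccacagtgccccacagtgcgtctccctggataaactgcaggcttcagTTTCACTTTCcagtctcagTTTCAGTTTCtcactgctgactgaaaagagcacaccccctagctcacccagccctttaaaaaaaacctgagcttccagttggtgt
Gbp2: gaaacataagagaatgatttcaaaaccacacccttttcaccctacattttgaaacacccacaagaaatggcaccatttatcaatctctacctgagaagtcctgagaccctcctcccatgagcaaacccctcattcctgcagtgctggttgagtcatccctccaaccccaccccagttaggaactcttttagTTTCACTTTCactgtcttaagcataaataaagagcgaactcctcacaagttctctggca
Igtp: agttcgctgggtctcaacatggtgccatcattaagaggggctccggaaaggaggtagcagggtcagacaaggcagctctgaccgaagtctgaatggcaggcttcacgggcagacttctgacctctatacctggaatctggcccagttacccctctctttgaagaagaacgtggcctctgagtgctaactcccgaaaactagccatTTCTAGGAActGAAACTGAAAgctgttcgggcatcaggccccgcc
Irgm1: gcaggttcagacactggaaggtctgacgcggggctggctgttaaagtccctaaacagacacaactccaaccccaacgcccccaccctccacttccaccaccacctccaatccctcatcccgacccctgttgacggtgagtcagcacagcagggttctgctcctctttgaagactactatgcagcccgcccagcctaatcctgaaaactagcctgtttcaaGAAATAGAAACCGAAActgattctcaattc
Irf8: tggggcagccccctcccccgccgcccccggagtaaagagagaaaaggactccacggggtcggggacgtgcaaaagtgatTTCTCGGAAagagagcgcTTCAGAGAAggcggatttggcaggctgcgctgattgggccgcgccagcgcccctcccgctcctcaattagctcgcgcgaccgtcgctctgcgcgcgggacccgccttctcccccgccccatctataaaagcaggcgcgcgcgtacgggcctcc

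The Ifit1 promoter held 2 ISRE cores, 104 to 95 and 85 to 76 bases before the start, and the Gbp2 promoter 1, at 59 to 50. In Igtp an ISRE core at 34 to 25 lay beside GAS letters at 45 to 37. Irgm1 held 2 overlapping ISRE cores at 30 to 21 and 24 to 15. Irf8 held GAS letters at 171 to 163 and 153 to 145 and no ISRE core in this window. Promoters of 31 of the 40 members were matched, and the search covered 300 bases, 250 before and 50 after the start. These 31 genes had 37 promoters in the table. An ISRE core was found in 17 of the 37, against 3.44% of all 32851 promoters searched. GAS letters were found in 11 of the 37, against 8.3% of all promoters, either motif in 23, against 11.3%, and both in 5, against 0.454%. A match describes the letters only.

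The targeted gene was examined before the comparisons. Of 8 Ntrk2 probe sets, 2 were far lower in KO: one was at most log2 2.83 in KO against 8.65 to 9.92 in WT, the other at most 4.94 in KO against 10.01 to 10.86 in WT. The library labelled KO sham replicate 2 went against its label, with 8.59 and 9.46 on these probe sets. For KO against sham, member counts and medians are therefore also given without it. Differences of single genes from KO sham include it. Neuron, astrocyte and oligodendrocyte marker means were between log2 12 and 13.7 in every group. Markers of monocytes and macrophages (11 genes) averaged 4.68, 7.87, 9.82 and 9.09 in KO for sham and days 1, 3 and 7, and 4.96, 8.24, 9.20 and 9.32 in WT. None of the 11 T and NK cell markers with a probe set was above log2 4 on any array. Skeletal muscle markers averaged 13.7 on KO day 3 replicate 3 and 11.5 on replicate 1, against 4.49 to 5.61 on the other 3 KO day 3 arrays, and ranged from 7.82 to 10.6 in KO sham and 3.36 to 9.0 in WT sham. In tissue RNA, more RNA per cell and more cells of a type cannot be told apart.

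Most of the interferon-stimulated genes were higher after injury than after sham surgery, in both genotypes at every time. In KO, 32 of the 35 tested members were higher at day 1 than after sham surgery, against 23.7% of all genes tested, 30 at day 3, against 30.9%, and 32 at day 7, against 23.5%. In WT, 28 were higher at day 1, against 27.1% of all genes, 26 at day 3, against 29.5%, and 30 at day 7, against 25.8%. The median log2 difference of the members from sham was 2.54, 1.99 and 2.17 at days 1, 3 and 7 in KO and 1.62, 1.40 and 1.71 in WT. Over all genes tested these medians lay between -0.06 and -0.05. A single member was lower than sham anywhere. This was Cmpk2, lower in KO at day 3, where 38.8% of all genes were lower, and in WT at day 1, 3 and 7, where 32.5%, 37.4% and 33.3% were lower. Without the library labelled KO sham replicate 2, 32, 29 and 31 members were higher in KO at days 1, 3 and 7. The median log2 differences were then 2.46, 1.87 and 2.04. The heat map of the members by array shows the rise and its differences between genes.

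**Figure D1:**
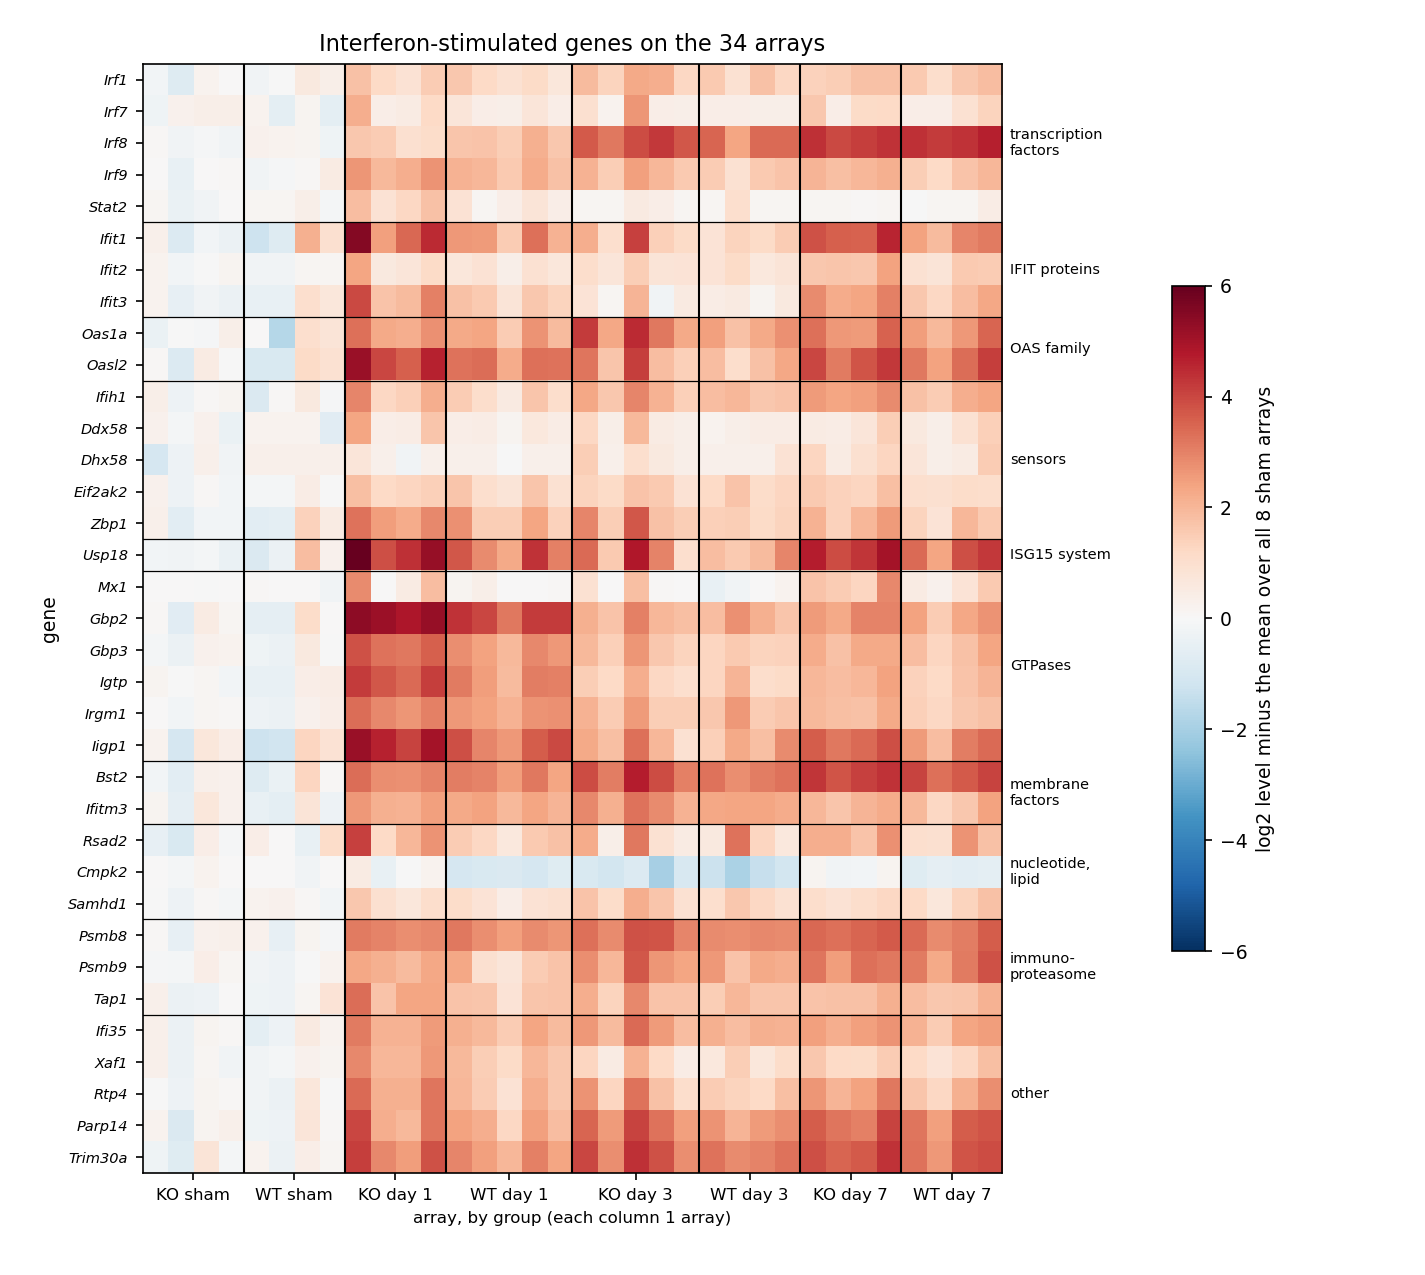
Log2 level of each of the 35 tested interferon-stimulated genes on each of the 34 arrays, minus the gene's mean over the 8 sham arrays. Rows are genes grouped by role and columns are arrays grouped by genotype and time, with KO left of WT at each time. Most rows are red after injury, Irf8 is dark red at days 3 and 7 and Gbp2 at day 1, and Cmpk2 is blue in WT after injury and in KO at day 3.

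Among the transcription factors, Irf8 rose the most by days 3 and 7. Irf8, a factor that myeloid cells and microglia need, had log2 levels of 8.85, 8.45, 8.62 and 8.80 in KO at day 7, against 4.56, 4.28, 4.38 and 4.27 after sham surgery. In WT it had 8.83, 8.66, 8.80 and 9.13 at day 7, against 4.74, 4.68, 4.63 and 4.22 after sham. No injured array overlapped with sham in either genotype. The rise was 19.8-fold in KO (adjusted p = 3.76e-16) and 19.5-fold in WT (adjusted p = 4.57e-16). It built up over time: the log2 difference from sham was 1.40, 3.85 and 4.31 on days 1, 3 and 7 in KO, and 1.62, 3.06 and 4.29 in WT. A further Irf8 probe set that passed the filter gave 4.32 in KO and 3.95 in WT at day 7. Microglia marker means (8 genes) were 7.57, 6.90, 9.08 and 9.59 in KO for sham and days 1, 3 and 7, and 7.72, 7.29, 8.70 and 9.51 in WT, so that they climbed between days 1 and 7 as Irf8 did but were below sham at day 1. Macrophage marker means were above sham at every time, and in KO were lower at day 7 (9.09) than at day 3 (9.82). The part of these cells in the rise of Irf8 was not tested.

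Irf1, an early activator in the interferon response, and Irf9, the DNA-binding partner of STAT2, rose at every time in both genotypes. Irf9 had log2 levels of 8.31, 7.62, 7.84 and 8.36 in KO at day 1, against 5.71, 5.22, 5.69 and 5.76 after sham. WT arrays had 7.77, 7.66, 7.25, 7.90 and 7.42 at day 1, against 5.45, 5.62, 5.75 and 6.15 after sham. The groups did not overlap, and the log2 difference was 2.44 ± 0.22 in KO and 1.86 ± 0.20 in WT (estimate ± standard error, as below). Irf1 had 6.63, 6.10, 7.03, 6.93 and 6.01 in KO at day 3, against 4.59, 3.99, 4.95 and 4.78 after sham, with differences from sham of 1.51, 1.96 and 1.75 on days 1, 3 and 7. WT arrays had 6.31, 5.64, 6.50 and 5.99 at day 3, against 4.51, 4.71, 5.36 and 5.09 after sham, with differences of 0.95, 1.19 and 1.35. Irf7, the amplifier of type I interferon production, was above log2 4 on only 4 of 34 arrays, 1 each in KO at days 1, 3 and 7 and in WT at day 7. It passed the test at day 7 in KO (adjusted p = 0.0499, at least 1.07-fold) and in WT (adjusted p = 0.038, at least 1.01-fold). Both calls were lost with values under log2 4 set to 4 (adjusted p = 0.74 in KO and 0.962 in WT), and the KO call was lost in 30 of 43 alternative settings. "At least" marks a fold computed with values under log2 4 set to 4, used where arrays of the lower group were not well above background.

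Stat2 rose in KO at day 1 and passed the test at no other time in either genotype. Its log2 levels were 5.19, 4.23, 4.58 and 5.09 in KO at day 1, against 3.45, 2.96, 3.13 and 3.35 after sham, all not well above background. In WT they were 4.23, 3.47, 3.76, 4.13 and 3.75 at day 1, against 3.46, 3.47, 3.69 and 3.25 after sham. KO at day 1 was the one group with every array above log2 4, and the rise there was at least 1.71-fold (adjusted p = 2.33e-07). In WT the log2 difference was 0.40 (adjusted p = 0.064).

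The IFIT proteins, which bind foreign RNA, and the ISG15 protease Usp18, which also restrains the type I receptor, rose to strong signals. Usp18 had log2 levels of 9.46, 7.03, 7.52 and 8.38 in KO at day 1, against 3.00, 2.97, 3.02 and 2.75 after sham, at least 17.1-fold higher (adjusted p = 1.66e-07). The WT levels were 6.90, 6.01, 5.42, 7.50 and 6.17 at day 1, against 2.28, 2.79, 5.02 and 3.41 after sham, at least 4.42-fold higher (adjusted p = 0.000133). No day 1 array fell within the sham range in either genotype, though WT sham replicate 3 stood above the other sham arrays.

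Ifit1, whose promoter is shown above, had 9.38, 6.36, 7.34 and 8.37 in KO at day 1, against 4.18, 3.05, 3.73 and 3.52 after sham. In WT it had 6.50, 6.43, 5.41, 7.20 and 5.96 at day 1, against 2.64, 3.12, 6.0 and 4.86 after sham. The KO groups were apart, at least 14.1-fold, while the WT groups overlapped because WT sham replicate 3 reached 6.0, with a rise of at least 3.00-fold (adjusted p = 0.00355). At day 3 Ifit1 did not pass in WT (log2 difference 0.93, adjusted p = 0.2), where 1 of the 3 IFIT genes, Ifit2, was higher, and 2 of 3 in KO, Ifit1 and Ifit2. At days 1 and 7 all 3 were higher in both genotypes.

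Of the oligoadenylate synthetases, whose products activate the RNA-cleaving enzyme RNase L, Oas1a and the synthetase-like Oasl2 could be tested, and both were higher at every time in both genotypes. Oasl2 had 8.29, 7.08, 6.69 and 7.71 in KO at day 1, against 3.19, 2.27, 3.60 and 3.08 after sham. The WT levels were 6.37, 6.44, 5.32, 6.39 and 6.33, against 2.20, 2.17, 4.24 and 3.99 after sham. The rise was at least 10.9-fold in KO (adjusted p = 8.17e-08) and at least 4.31-fold in WT (adjusted p = 1.08e-05), with no overlap. Oas1a had 8.48, 6.63, 8.79, 7.46 and 6.56 in KO at day 3, against 3.91, 4.27, 4.24 and 4.66 after sham, at least 9.79-fold higher. In WT at day 3 it had 6.79, 6.05, 6.56 and 7.05, against 4.35, 2.61, 5.30 and 5.10 after sham, at least 3.80-fold higher. All injured arrays lay above sham.

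The interferon-inducible GTPases rose strongly at day 1. Gbp2, a guanylate-binding protein that attacks the vacuoles of pathogens, had log2 levels of 11.50, 11.31, 11.02 and 11.38 in KO at day 1, against 6.20, 5.49, 6.64 and 6.27 after sham. WT arrays had 10.51, 10.15, 9.33, 10.34 and 10.35 at day 1, against 5.60, 5.61, 7.26 and 6.16 after sham. The day 1 arrays lay above every sham array, by 35.6-fold in KO (adjusted p = 4.96e-13) and 15.8-fold in WT (adjusted p = 2.89e-11). Igtp, an immunity-related GTPase of the mouse, had 10.50, 10.03, 9.71 and 10.47 in KO at day 1, against 6.45, 6.27, 6.43 and 6.12 after sham, 14.5-fold higher. In WT it had 9.44, 8.80, 8.22, 9.39 and 9.32, against 5.86, 5.85, 6.69 and 6.75 after sham, 6.71-fold higher. Igtp groups did not overlap. Iigp1, of the same family, had 10.23, 9.66, 9.11 and 10.06 in KO at day 1, against 5.26, 4.03, 5.76 and 5.44 after sham, 25-fold higher. WT arrays had 8.92, 7.98, 7.65, 8.68 and 9.02, against 3.81, 3.92, 6.36 and 5.91 after sham, at least 10.4-fold higher, again with no overlap. Gbp3 rose by 3.46 in KO and 2.51 in WT on the log2 scale, and Irgm1 by 2.98 and 2.52. Counting Mx1, all 6 tested GTPases were higher in KO at days 1 and 7 and 5 at day 3, and 5 were higher in WT at each time. The exception each time was Mx1, the dynamin-like antiviral factor, which in WT was above log2 4 on 1 of 17 arrays.

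**Figure D2:**
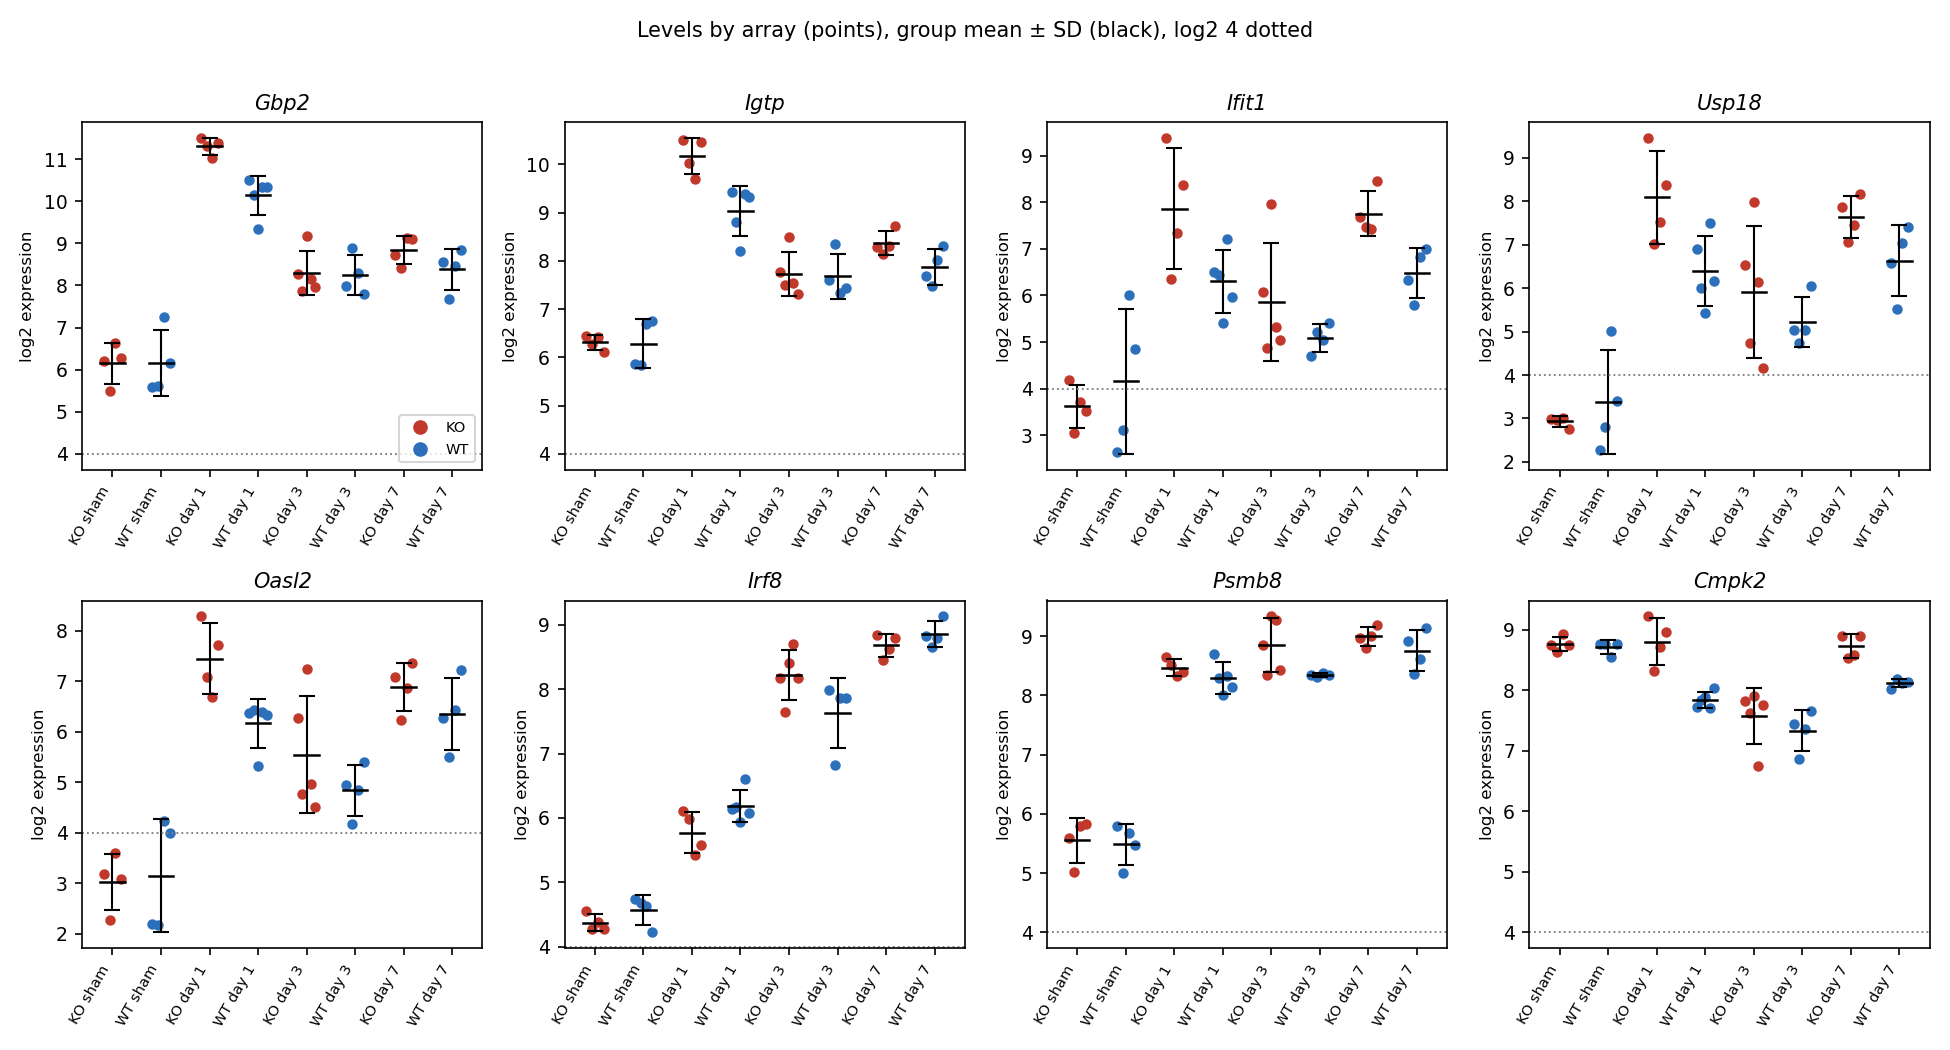
Log2 level of 8 interferon-stimulated genes on each array (points, KO red and WT blue), with the group mean and SD in black and log2 4 as a dotted line. Gbp2 and Igtp are highest at day 1, Irf8 climbs to day 7, Ifit1, Usp18 and Oasl2 dip at day 3, and WT levels of Cmpk2 lie below sham after injury.

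Genes of antigen processing rose and stayed high. Psmb8, a catalytic subunit of the immunoproteasome, had log2 levels of 8.97, 8.81, 9.01 and 9.20 in KO at day 7, against 5.59, 5.02, 5.79 and 5.82 after sham, 10.9-fold higher (adjusted p = 4.33e-14). The WT levels were 8.93, 8.36, 8.61 and 9.13 at day 7, against 5.79, 5.01, 5.67 and 5.47 after sham, 9.64-fold higher (adjusted p = 1.22e-13). No array overlapped with sham. Psmb9, a second subunit, and Tap1, which carries peptides into the endoplasmic reticulum, were also higher at every time in both genotypes. Psmb9 differed from sham at day 7 by 2.96 in KO and 3.16 in WT, and Tap1 by 1.93 in KO and 1.71 in WT.

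Both membrane factors were higher at every time as well. Bst2, or tetherin, which holds budding virions at the cell surface, had 9.72, 9.19, 9.51 and 9.76 in KO at day 7, against 5.26, 4.82, 5.74 and 5.69 after sham. WT arrays had 9.51, 8.76, 9.13 and 9.49, against 4.67, 5.06, 6.74 and 5.48 after sham. Day 7 arrays were above all sham arrays, by 18-fold in KO (adjusted p = 2.72e-11) and 13.3-fold in WT (adjusted p = 2.4e-10). Ifitm3, which blocks the fusion of viruses with endosomes, was 4.53-fold higher at day 1 in KO and 5.14-fold higher in WT.

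The nucleic acid sensors rose less. At day 1, 4 of 5 were higher in KO and 3 of 5 in WT, with median log2 differences of 1.46 and 1.16. Eif2ak2 (PKR, which halts translation on double-stranded RNA), Ifih1 (MDA5) and Zbp1, a sensor that can trigger necroptosis, were higher at every time in both genotypes. Another Eif2ak2 probe set did not pass in WT at day 7 (0.25, adjusted p = 0.213 over all probe sets tested). Ifih1 differed from sham by 1.88, 1.99 and 2.48 at days 1, 3 and 7 in KO and by 1.25, 1.86 and 2.03 in WT. Ddx58 (RIG-I) did not pass in WT at day 1 (0.41, adjusted p = 0.306) or day 3 (0.37), or in KO at day 7 (0.77). A further Ddx58 probe set, averaging log2 3.72 over all arrays, did not pass in WT at days 1 and 3 either. It did pass in KO at day 7 (1.68, adjusted p = 0.00123 over all probe sets tested). Dhx58 (LGP2) did not pass in WT at any time or in KO at day 1. The other interferon-induced genes Ifi35, Xaf1, Rtp4, Parp14 and Trim30a were higher at every time in both genotypes. Trim30a, of the tripartite motif family, had 8.73, 8.34, 8.52 and 9.19 in KO at day 7, against 4.59, 4.13, 5.62 and 4.75 after sham, 15.2-fold higher. In WT at day 7 it had 8.12, 7.44, 8.63 and 8.80, against 5.09, 4.51, 5.24 and 4.98 after sham, 9.81-fold higher, and no group overlapped with sham. At day 1 Ifi35, Xaf1, Rtp4 and Parp14 differed from sham by 2.42, 2.40, 2.74 and 2.88 in KO and by 2.03, 1.61, 1.62 and 1.99 in WT. Parp14, an ADP-ribosyltransferase, had 6.31, 5.63, 6.15 and 6.39 in WT at day 3, against 3.35, 3.28, 4.31 and 3.65 after sham. Samhd1, a dNTP hydrolase, was also higher at every time, by 1.17, 1.60 and 1.14 on days 1, 3 and 7 in KO and 0.75, 1.11 and 1.15 in WT, but neither of its 2 other probe sets passed at day 1 in either genotype or at day 7 in KO.

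Cmpk2, a mitochondrial nucleotide kinase and genomic neighbour of the antiviral enzyme Rsad2 (viperin), ran against the other members. It was well expressed after sham surgery, at log2 8.75, 8.64, 8.93 and 8.75 in KO and 8.78, 8.77, 8.55 and 8.77 in WT. At day 1 it had 9.23, 8.32, 8.71 and 8.97 in KO and 7.73, 7.85, 7.88, 7.71 and 8.04 in WT. WT arrays at day 1 were all below WT sham, while KO arrays lay on both sides of KO sham. The log2 differences from sham on days 1, 3 and 7 were 0.04, -1.19 and -0.03 in KO (adjusted p = 0.878, 1.16e-06 and 0.902), and -0.88, -1.39 and -0.60 in WT (adjusted p = 0.000156, 4.01e-07 and 0.00768). The other Cmpk2 probe set was not above log2 4 on any array. Rsad2 was higher in KO at every time, 6.85-fold at day 1, and did not pass in WT, where its log2 differences were 1.06, 1.16 and 1.33 (adjusted p = 0.113, 0.0916 and 0.0604). Another Rsad2 probe set did not pass in KO at day 3 (0.87, adjusted p = 0.222 over all probe sets tested).

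By group mean all 6 tested GTPases were lower at day 3 than at day 1 in both genotypes, and 5 of them passed, while Irf8 was higher. In KO, 12 of 35 members were lower at day 3 than at day 1, a share near the 31% of all genes, and 2 were higher, Irf8 and Bst2, against 23.5%. In WT, 8 of 35 were lower, against 17.3% of all genes, and 1 was higher, Irf8, against 15.4%. Gbp2 had log2 levels of 8.27, 7.87, 9.18, 8.16 and 7.96 in KO at day 3, all below the day 1 arrays (log2 difference -3.01, adjusted p = 1.05e-08). In WT it had 8.0, 8.88, 8.30 and 7.80 at day 3, also all below day 1 (-1.89, adjusted p = 4.21e-05). Igtp differed by -2.45 in KO (adjusted p = 1.78e-08) and -1.35 in WT (adjusted p = 0.000288), and Iigp1 by -2.65 and -1.29. Gbp3, Irgm1, Oasl2, Xaf1 and Cmpk2 were lower in both genotypes as well. Usp18, Ifit1, Ifit3 and Stat2 passed in KO only by their own tests, and their difference between genotypes did not pass. Irf8 differed by 2.45 in KO (adjusted p = 6.25e-11) and 1.45 in WT (adjusted p = 2.71e-06).

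Between day 3 and day 7 the share of members that were higher was near that of all genes. In KO, 8 of 35 members were higher at day 7 than at day 3, against 19.3% of all genes: Ifit3 (log2 difference 1.96), Ifit1 (1.90), Usp18 (1.73), Iigp1 (1.46), Oasl2 (1.34), Mx1 (1.28), Cmpk2 (1.16) and Ifit2 (0.86). Without KO day 7 replicate 4, 2 were higher. In WT, 5 of 35 were higher, against 11% of all genes: Oasl2 (1.52), Ifit3 (1.33), Irf8 (1.22), Psmb9 (0.87, adjusted p = 0.0471) and Cmpk2 (0.79). The Psmb9 call was lost in 28 of 44 alternative settings and that of Oasl2 in 6. Without WT day 3 replicate 3 or WT day 7 replicate 4, 2 were higher, and without WT day 3 replicate 2, WT day 7 replicate 1 or WT day 7 replicate 3, 3 were. Ifit1 had 7.69, 7.46, 7.42 and 8.45 in KO at day 7, against 6.08, 4.88, 7.97, 5.32 and 5.03 at day 3. In WT Ifit1 had 6.32, 5.80, 6.81 and 7.0 at day 7, against 4.69, 5.21, 5.03 and 5.41 at day 3. In KO only day 3 replicate 3 reached the day 7 range. In WT the day 7 arrays were all higher, but the difference did not pass the test.

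By group mean, 19 of the 35 members were highest at day 1 in KO, 4 at day 3 and 12 at day 7, against 43.2%, 27.4% and 29.4% of all genes. In WT, 9 were highest at day 1, 2 at day 3 and 24 at day 7, against 41.8%, 23.6% and 34.6% of all genes. The highest day was the same in both genotypes for 21 of 35. These counts describe group means and carry no test.

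At day 1, 3 members were higher in KO than in WT, and nearly all leaned that way. After sham surgery no member differed between KO and WT, where 0.0667% of all genes did. Without adjustment 1 passed (Dhx58, lower in KO), against 4.1% of all genes. Dhx58 was not well above background on any sham array, and its difference was 0 with values under log2 4 set to 4. Without the library labelled KO sham replicate 2, again no member passed after sham surgery, and the median log2 difference was 0.04, against -0.07 with it. The 3 at day 1, against 0.192% of all genes, were Cmpk2, Stat2 and Igtp. Without adjustment 22 members passed, 21 of them higher in KO, against 9.7% of all genes. The log2 difference was above 0 for 34 of 35, against 55.1% of all genes, with a median of 0.79, and Irf8 was the exception (-0.41, adjusted p = 0.512). In 7 members every KO array lay above every WT array, against 2.18% of all genes: Cmpk2, Stat2, Igtp, Gbp2, Gbp3, Iigp1 and Oasl2.

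**Figure D3:**
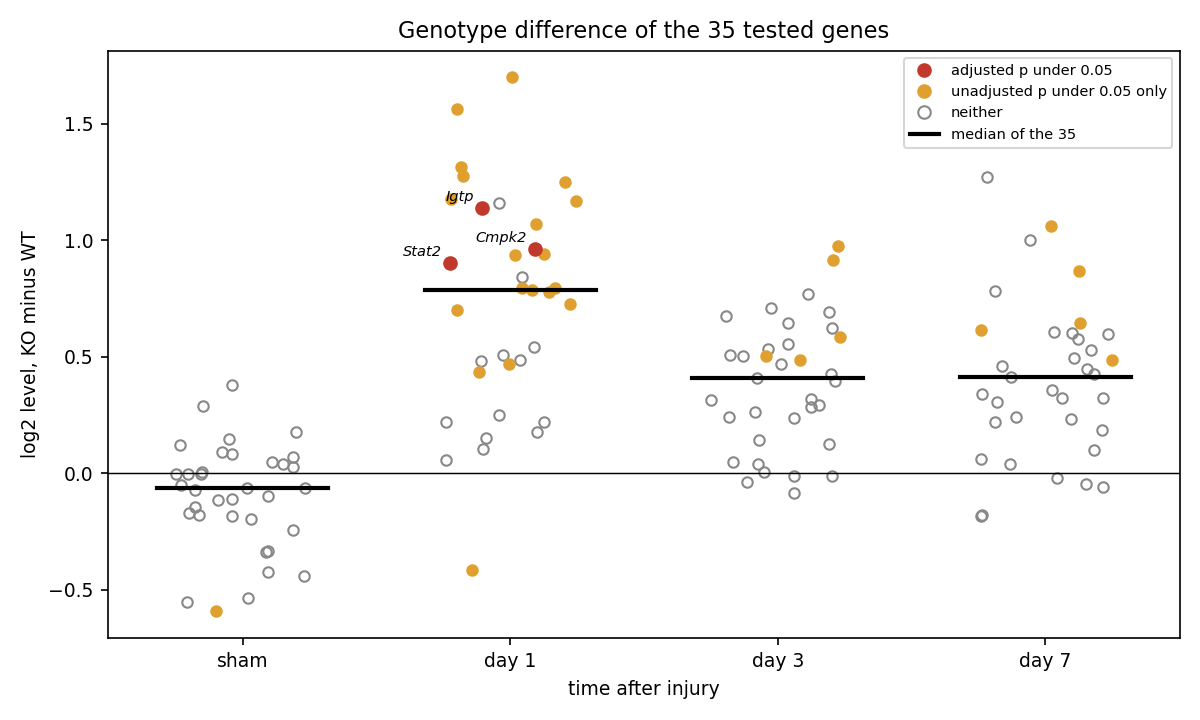
Log2 level in KO minus WT for each of the 35 tested interferon-stimulated genes after sham surgery and at days 1, 3 and 7 (points; bars are medians). At day 1 all points but Irf8 lie above 0, and the red points, Cmpk2, Stat2 and Igtp, are the genes with an adjusted p under 0.05.

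For Cmpk2 the arrays above give a difference of 0.96 ± 0.18 (adjusted p = 0.00346), with KO at its sham level and WT below its own. Stat2 was at least 1.63-fold higher in KO (adjusted p = 0.0102), since 3 of 5 WT arrays were not well above background. It did not pass without KO day 1 replicate 1 or without replicate 4. The other Stat2 probe set was above log2 4 on only 2 of 34 arrays and did not pass the filter. For Igtp the log2 difference was 1.14 ± 0.27 (adjusted p = 0.0294), with KO arrays from 9.71 to 10.50 and WT arrays from 8.22 to 9.44. Gbp3 and Gbp2 were on the other side of the threshold, at 0.94 ± 0.24 (adjusted p = 0.0502) and 1.17 ± 0.32 (adjusted p = 0.0876). The largest differences belonged to Usp18 (1.70 ± 0.61, adjusted p = 0.27) and Ifit1 (1.56 ± 0.61, adjusted p = 0.335), whose KO arrays were far apart. Without KO day 1 replicate 1 or replicate 4, 1 member passed in each case, and the median was 0.52 and 0.65. Of the macrophage, microglia and neutrophil markers 0 of 11, 0 of 8 and 0 of 9 passed between genotypes at day 1, against 0.859% of all genes in either direction. The microglia marker mean was nevertheless lower on every KO array, 6.69 to 7.09, than on every WT array, 7.12 to 7.44, and the median log2 difference of these 8 genes was -0.32. The part of these cells in the differences between genotypes was not tested.

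At days 3 and 7 no member passed between genotypes, and the median difference was 0.41 each time. At day 3, 0.0334% of all genes passed, and 5 members passed without adjustment (Irf8, Irf9, Oas1a, Psmb8 and Zbp1, all higher in KO), against 11.5% of all genes. At day 7, 0.0334% of all genes passed, and 5 members passed without adjustment (Cmpk2, Eif2ak2, Ifit2, Ifit3 and Mx1, all higher in KO), against 4.8%. Cmpk2 had 8.91, 8.54, 8.59 and 8.91 in KO at day 7, against 8.03, 8.18, 8.13 and 8.13 in WT, with no overlap (0.62 ± 0.19, adjusted p = 0.676).

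Whether injury changed the members more in KO than in WT was tested by the difference of the 2 responses. No member passed at day 1, 3 or 7, where 0.142%, 0% and 0.00834% of all genes did. Without adjustment 10, 5 and 3 members passed, against 6.34%, 7% and 3.29% of all genes. The smallest adjusted p was that of Stat2 at day 1 (adjusted p = 0.0829), whose difference was 0.70 with values under log2 4 set to 4, as all 8 sham arrays were not well above background, followed by Cmpk2 (0.92, adjusted p = 0.269). Without the library labelled KO sham replicate 2, again no member passed, with medians of 0.68, 0.35 and 0.33 at days 1, 3 and 7. For the change between day 1 and day 3, no member differed between genotypes, where 0.859% of all genes did, and 5 passed without adjustment, against 14.4%: Stat2 (adjusted p = 0.0708, and -0.79 with an adjusted p of 0.011 with values under log2 4 set to 4), Irf8 (1.00, adjusted p = 0.0916), Igtp (-1.10, adjusted p = 0.183), Cmpk2 (-0.72, adjusted p = 0.194) and Gbp2 (-1.12, adjusted p = 0.265).

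In some groups a single array was the highest or the lowest for most members. The mean level of the 35 members was log2 8.52 and 8.01 on KO day 1 replicates 1 and 4, against 7.37 and 7.38 on replicates 2 and 3, and 6.59 to 7.39 in WT at day 1. Replicate 1 was the highest of the 4 KO day 1 arrays for 34 of 35 members, against 28% of all genes. At day 3 in KO, replicate 3 had a mean of 8.20, against 6.67 to 7.51 on the other 4, and was the highest for 33 members, against 20.6% of all genes. On that array skeletal muscle markers averaged 13.7 and neutrophil markers 10.1, against 7.08 to 8.36 for neutrophil markers on the other 4. On the KO day 1 arrays muscle markers averaged 3.52 to 6.71 and neutrophil markers 7.63 to 7.80. Macrophage markers averaged 10.4, 10.3 and 10.1 on KO day 3 replicates 3, 4 and 1, against 9.08 and 9.25 on replicates 2 and 5, the 2 arrays with the lowest member means. On KO day 1 replicate 1 macrophage (8.27) and microglia (7.09) markers were also the highest of the 4. The part of these markers in the spread of the members was not tested. Without KO day 3 replicate 3, 29 members were higher than sham in KO at day 3.

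**Figure D4:**
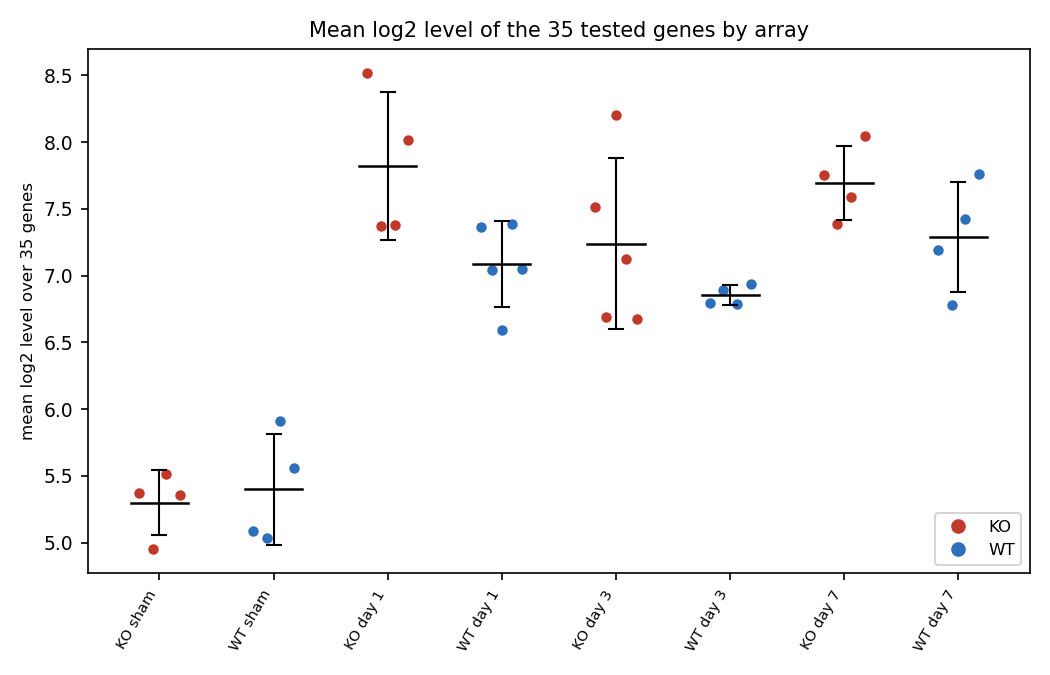
Mean log2 level of the 35 tested interferon-stimulated genes on each array (points, KO red and WT blue), with the group mean and SD in black. All injured arrays lie above all sham arrays, KO day 1 falls into 2 pairs of arrays, and KO day 3 replicate 3 stands above the rest of its group.

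In WT at day 3 no array was the highest or the lowest for more than 13 members. WT day 1 replicate 3 was the lowest of its group for 30 members, against 17.8% of all genes, and WT day 7 replicate 2 for 33, against 27.7%. WT sham replicate 3 was the highest sham array for 22 members, against 31.1%, and the library labelled KO sham replicate 2 the lowest for 27, against 25.9%. The SD of a member was larger in KO than in WT for 26 of 35 at day 1, against 42% of all genes, and for 30 of 35 at day 3, against 54.2%.

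Apart from Ifnz, the interferons with a probe set were not well above background. Ifnb1, Ifng, Ifnab and 5 Ifna genes stayed at or below log2 2.90 on all 34 arrays. Ifnz, the remaining ligand with a probe set, was above log2 4 on every array and lower after injury in all 6 comparisons with sham, by -0.47 to -0.77. Of the receptor chains, 5 were tested: 4 were higher at day 1 and all 5 at days 3 and 7 in both genotypes, against 23.7%, 30.9% and 23.5% of all genes at days 1, 3 and 7 in KO and 27.1%, 29.5% and 25.8% in WT. The counts of higher genes in the lists that follow stand against these same shares. Ifnar2 was 2.84-fold higher in KO and 3.07-fold higher in WT at day 7. Ifngr1 was 2.49-fold higher in KO and 2.89-fold higher in WT at day 7. Il10rb, a chain that the type III interferon receptor shares, was 5.88-fold higher in KO and 7.84-fold higher in WT.

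Of the 3 receptor kinases, 2 were higher in KO at each time, Jak2 and Tyk2, and in WT 2 at day 1, 0 at day 3 and 2 at day 7. Among 8 negative regulators tested, 5, 5 and 4 were higher in KO at days 1, 3 and 7 and 6, 6 and 4 in WT. Pias1 was lower in KO at days 1 and 3 and in WT at days 1, 3 and 7 (log2 differences -0.31 to -0.46). Irf2bp1 was lower at day 3 in both genotypes (-0.37 in KO and -0.39 in WT). Of all genes, 27.3%, 38.8% and 31% were lower at days 1, 3 and 7 in KO and 32.5%, 37.4% and 33.3% in WT. Socs3, which blocks JAK kinases, averaged log2 11.65 in KO at day 1, against 5.30 after sham, and 11.73 in WT, against 5.07 after sham. That is 81.5-fold in KO and 101-fold in WT. Among 8 tested genes of interferon induction, 3, 6 and 6 were higher in KO and 5, 6 and 7 in WT. Tbk1 was lower in KO at days 3 and 7 (-0.21 and -0.22), and Tlr3 was lower in WT at day 1 (-0.32). Tlr7, the endosomal sensor of single-stranded RNA, was at least 10.6-fold higher in KO and at least 11.9-fold higher in WT at day 7. No gene of these lists differed between genotypes.

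A wider list of 60 further interferon-stimulated genes, 42 of them tested, gave 36, 40 and 39 higher in KO at days 1, 3 and 7 and 31, 36 and 36 in WT. Adar, an RNA-editing enzyme, was the single member lower in any of these, with log2 differences of -0.79 at day 3 and -0.41 at day 7 in KO and -0.49, -0.80 and -0.78 at days 1, 3 and 7 in WT. Between genotypes 3 of the 42 passed, all higher in KO at day 1, against 0.192% of all genes, and named after their values were seen. Cxcl10, the interferon-induced chemokine, had 10.95, 8.29, 8.43 and 9.16 in KO, against 7.98, 7.89, 6.83, 7.68 and 6.99 in WT, with no overlap (log2 difference 1.74 ± 0.43, adjusted p = 0.0429). Samd9l, an antiviral and growth-limiting protein, averaged 8.14 ± 0.65 in KO (SD, n = 4) and 6.84 ± 0.44 in WT (SD, n = 5), a difference of 1.30 (adjusted p = 0.0258), and was 0.78 higher in KO sham too (adjusted p = 1). Znfx1, a sensor of viral RNA, differed by 0.76 (adjusted p = 0.0274).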

How the data were processed

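Spinal cord RNA of 34 samples was extracted with Trizol and hybridised as biotinylated cRNA to 1 Affymetrix array each, per the labels. The deposited values are log2 probe set levels from GCRMA (version not given in the submitters' processing notes), which corrects background by probe base composition and compresses low signals. Genes came from GEO's platform annotation: of 45101 probe sets, 34945 named 1 gene, 932 several and 9160 none, and 64 were controls. Per gene the brightest probe set on average was used, kept with log2 above 4 on at least 4 arrays. limma 3.58.1 (R 4.3.3, lmFit and eBayes, 1 mean for each of 8 groups) was fitted to 11993 genes, with Benjamini-Hochberg adjustment within each of 18 comparisons and a threshold of 0.05, after tests on simulated data. Values by array are given for the interferon transcription factors, the members with the largest rises free of overlap and those with the smallest p between genotypes and days. Groups of 4 or 5 arrays limit the precision. Array correlations ranged from 0.9368 to 0.998386. The members and lists were chosen with earlier results of these data known. Deviations of same-numbered replicates had correlations of -0.402 to 0.376, and in none of 14 pairs of groups were all above 0.1. Between KO and WT at day 1 they were 0.247, 0.308, 0.352 and -0.126 for replicates 1 to 4. With 4 or 5 arrays in a group this cannot exclude that the numbers pair samples. The main fit did not pair them. Alternatives changed the normalization, probe set choice, filter, floor, groups fitted, array weights and replicate block, or left out each array.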

Additional observations from a re-analysis of the deposited data

Results flagged for a closer look

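A gap test for a single high or low array was applied to the 27 members named by the rule for named genes and to the mean of the 35 members in each of the 8 groups of 4 or 5 arrays, 224 sets in all, and picked out 17, or 7.59%, where chance gives about 1 in 20. Values are log2 levels of the array that stood apart. In KO sham, Irf7 on replicate 1 was low at 2.48, Irf9 on replicate 2 at 5.22, Parp14 on replicate 2 at 2.75 and Mx1 on replicate 3 at 3.09. In KO at day 3, Cmpk2 on replicate 4 was low at 6.76. In KO at day 7, Ifit2 on replicate 4 was high at 10.23 and Gbp3 on replicate 2 low at 8.26.

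In WT sham, replicate 3 was high for Eif2ak2 (7.05) and Dhx58 (3.73) and low for Cmpk2 (8.55), and replicate 4 was low for Mx1 (2.88). In WT at day 1, replicate 3 was low for Oasl2 (5.32) and Dhx58 (3.42). In WT at day 3, replicate 2 was low for Irf8 (6.83) and high for Stat2 (4.36) and Irgm1 (8.85), and replicate 4 was high for Dhx58 (4.29). The Irf7, Dhx58, Parp14 and Mx1 values were near or under log2 4, where differences are not well measured.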

How the results depend on the processing

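Counts of members passing against sham kept within 1.5 times under every alternative run. Leaving out each array in turn gave 30 to 34 in KO at day 1, 30 to 33 at day 3 and 31 to 33 at day 7, and 28 to 30, 25 to 28 and 28 to 32 in WT. Between genotypes at day 1, where 3 members passed, 1 passed with only the 2 groups in the fit, 5 with array weights, and 1 to 5 with an array left out. With array weights, 1 member passed at day 7 and 2 in the day 1 difference of responses, against 0 otherwise. That difference gave 0 to 1 with an array left out. The genotype difference in the change between day 1 and day 3 gave 1 with values under 4 set to 4, 1 with a replicate block, and 0 to 2 with an array left out. For KO day 7 minus day 3 (8 members), 4 passed with only the groups compared and 2 to 10 with an array left out, 2 of them without KO day 7 replicate 4. For WT day 7 minus day 3 (5 members), 3 passed without the filter and 2 to 5 with an array left out, and for WT day 3 minus day 1 (9 members) 5 to 12. The replicate block moved no other count by over 1.5 times. Stat2 in WT, near background, changed sign without passing: at day 7 its log2 difference from sham was -0.0420 after quantile normalization, -0.00427 after median centring, -0.0295 with array weights, -0.0543 without WT day 7 replicate 4 and -0.0332 without WT sham replicate 4, and at day 3 -0.00685 without WT day 3 replicate 2 (range with an array left out -0.0543 to 0.117 at day 7 and -0.00685 to 0.294 at day 3). Of 5070 recomputed values of named genes, 4927 kept direction and side of the threshold, 91 lost their call, 46 gained one and these 6 changed sign. The cause was not tested. Cmpk2 held its day 1 genotype call in every setting run, and Igtp lost it in 7 of 44 and Stat2 in 3 of 42. With the stricter filter and with the mean over all probe sets of a gene, Stat2 was too low to be tested.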

Other observations

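Median differences of members with and without the motif letters are given here as values with no test. The 15 tested members with an ISRE core had a median log2 difference from sham of 2.87 in KO and 2.14 in WT at day 1, and the 13 matched members without one 2.07 in KO and 1.54 in WT. At day 3 the medians were 1.82 in KO and 1.40 in WT with an ISRE core, and 1.99 in KO and 1.36 in WT without. At day 7 they were 2.48 in KO and 1.82 in WT with an ISRE core, and 1.93 in KO and 1.52 in WT without. Between day 1 and day 3 the median change was -1.07 in KO and -0.04 in WT with an ISRE core, and -0.14 in KO and 0.07 in WT without. The 11 members with GAS letters changed by 0.38 in KO and 0.15 in WT, and the 17 without by -1.16 in KO and -0.50 in WT. Against sham, medians with GAS letters at days 1, 3 and 7 were 2.18, 2.41 and 2.05 in KO and 2.03, 2.10 and 1.94 in WT. Without GAS letters they were 2.54, 1.82 and 2.12 in KO and 1.54, 1.36 and 1.54 in WT. Both motifs were found in 5 genes, so the ISRE and GAS sets overlap.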
